A study of Homo sapiens with 2 samples.

Results

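The transcriptome of RKO cells under a control siRNA was described from 1 RNA-seq library, as the rows of the deposited expression table with a value of at least 1 FPKM (fragments per kilobase, with the library's total as the scale, so that gene length and depth are both corrected for). Of the 40205 rows in the table, 11353 (28.2%) reached that level and are called expressed here. A further 6039 rows lay above 0 and below 1 FPKM, and 22813 rows were listed at 0. The rows were thus chosen by their FPKM value in this library, so their levels are a description and carry no test. The series held 2 libraries of total RNA from RKO cells, 1 transfected with siRNA against the splicing factor gene SRSF1 and 1 with control siRNA, both collected 48 hours after transfection. The targeted gene was at 32.7 FPKM in the SRSF1 siRNA library and at 103 FPKM in the control siRNA library. The control was a transfected culture rather than an untreated one. With 1 library per group there was no replicate, so no value below carries a spread between cultures.

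RKO is an established human line from a poorly differentiated colon carcinoma. It is widely used as a model of the tumour class with an activating BRAF mutation, defective DNA mismatch repair, and a p53 response that still works. Normal colon epithelium is held in its identity by a set of transcription factors, among them CDX2, HNF4A and the posterior HOX genes, which switch on the genes of absorptive and mucus-secreting cells. Its cells are joined by E-cadherin and claudins and carry simple keratins.

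The library had 64651910 reads, of which 45508665 (70.4%) mapped and 97.8% of those mapped to 1 place. The FPKM values could be traced back to whole fragments against a library total of 23138519 fragments, so that 1 FPKM stood for 23.1 fragments per kilobase of gene model. The 95% exact Poisson intervals given below come from those fragments and cover counting error only, and PCR copies can make them too narrow. Each recovered count is the smallest that matches its value, and a true count can be a whole multiple of it. Some recovered gene-model lengths were short, such as 93 bases for RPS3A. The recovered fragments summed to 20812317, so shares of fragments given below are approximate. By these smallest counts the median expressed row rested on 610 fragments, and 235 of the expressed rows had fewer than 10.

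The 6 marker genes were CDX2, KRT8, KRT18 and EPCAM for the colon carcinoma line and LCP1 and CD68 for blood cells. All 6 were expressed, where 51% of all mRNA rows were, and the highest was CD68, a blood-cell marker. They were chosen with earlier results of these data known, so their count is no test of identity. CD68, a lysosomal glycoprotein used as a macrophage marker, stood at 218 FPKM (213 to 222), rank 257 of 11353. KRT18, a simple epithelial keratin, was at 88.4 FPKM (85.2 to 91.6), rank 700. LCP1, the actin-bundling protein L-plastin of leukocytes, was at 74.3 FPKM (72.5 to 76.1), rank 860. The epithelial markers were otherwise lower. EPCAM, an epithelial adhesion glycoprotein, had 17.2 FPKM (16.0 to 18.6) at rank 3731. CDX2, the homeobox factor that specifies intestinal epithelium, had 5.63 FPKM (5.01 to 6.29) at rank 7356. KRT8, the keratin that pairs with KRT18 in filaments, had 3.62 FPKM (3.11 to 4.19) at rank 8676. None of the 6 intervals overlapped another, and fragments behind them ran from 180 for KRT8 to 9355 for CD68. Both CDX2 and KRT8 were below the median of the expressed rows, 9.43 FPKM. For a line labelled as colon carcinoma, the epithelial and intestinal markers were thus detected, while most genes of intestinal differentiation were not, as given below.

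Annotation limits some of these marker values. In GENCODE 29 the genes KRT8 and KRT18 share exon bases on opposite strands of chromosome 12, and the strand setting of the counting was not given in the sources used here, so reads of one could have counted for the other. CD68 shares exon bases on chromosome 17 with a transcript on the same strand that also overlaps EIF4A1, itself at 358 FPKM. Their part in the CD68 and KRT8 values was not tested. CDX2, EPCAM and LCP1 overlapped no exon of another gene. KRT8 had 48 pseudogene rows in the table, which summed to 2.86 FPKM with 1 of them expressed, and the 64 pseudogene rows of KRT18 summed to 0.521 FPKM with none expressed.

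Levels fell steeply with rank. The single highest row held 3.22% of the summed FPKM, the 10 highest held 16.2%, the 100 highest held 41.4% and the 1000 highest held 69.8%. The value was 565 FPKM at rank 100 and 66.0 FPKM at rank 1000. The 213 highest rows were enough to hold 50% of the summed FPKM, whereas about 669 rows were needed to hold 50% of the recovered fragments. Among expressed rows the quartiles were 3.83 and 23.9 FPKM. The range from 10 to 50 FPKM held 4126 rows (36.3%), and 61 rows (0.537%) stood at 1000 FPKM or more and held 34.96% of the summed FPKM. At the lower edge, the rows just inside the threshold were OVOL2 at 1.00054 FPKM with 36 fragments, ABTB1 at 1.00052 FPKM with 46 and C20orf112 at 1.00025 FPKM with 164. Just outside it were CASC10 at 0.99951 FPKM with 46 fragments, HIC1 at 0.99919 FPKM with 79 and IRAK2 at 0.99667 FPKM with 80. Counting error alone could have put any of these rows on the other side.

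**Figure D1:**
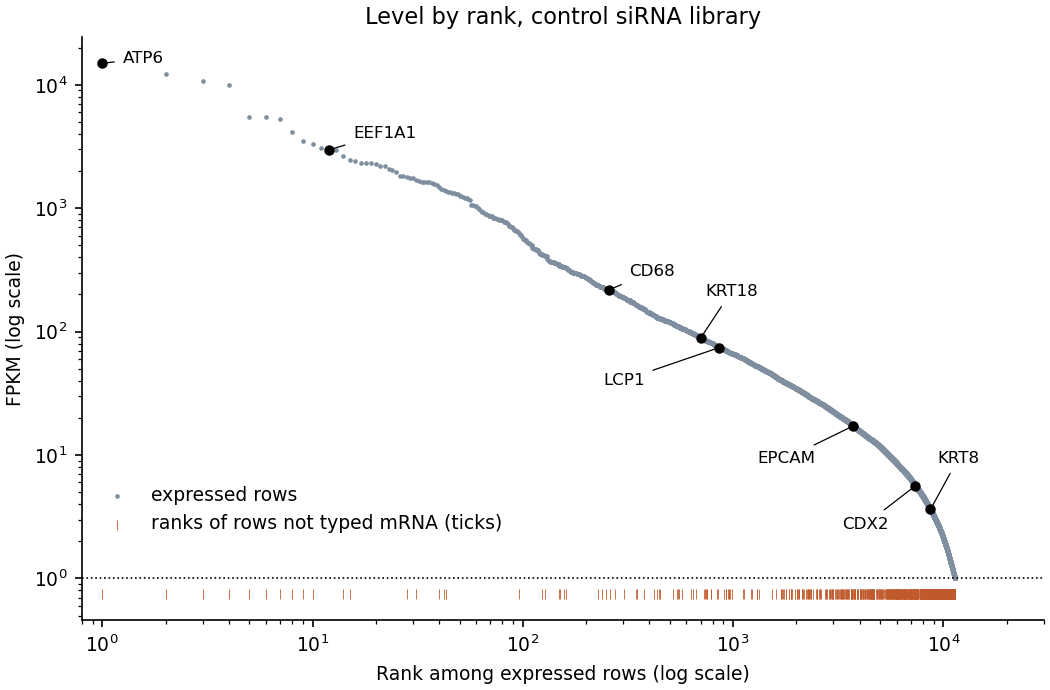
FPKM of each expressed row (y axis, log scale) against its rank (x axis, log scale), with the 6 marker genes, ATP6 and EEF1A1 named, and orange ticks at the ranks of rows whose type is not mRNA. The 10 highest ranks all carry ticks, and the markers run from rank 257 for CD68 to rank 8676 for KRT8.

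By the type that the table gives each row, 10094 of the expressed rows (88.9%) were mRNAs. They were 51.0% of the 19784 mRNA rows and held 77.6% of the summed FPKM and about 90.6% of the recovered fragments. The median expressed mRNA had 10.7 FPKM. Expressed shares were far smaller among rows typed miscRNA, with 586 of 6196 (9.46%), and among those typed ncRNA, with 352 of 11744 (2.997%). Small nucleolar RNAs were expressed in 172 of 388 rows (44.3%), transfer RNAs in 35 of 449 (7.80%), miRNAs in 56 of 795 (7.04%) and miRNA precursors in 48 of 705 (6.81%). The RNA components of RNase P and RNase MRP, RPPH1 and RMRP, were at 9.76 and 8.87 FPKM. The telomerase RNA TERC was below the threshold at 0.767 FPKM.

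The ncRNA type mixed unlike genes. The 13 protein genes of the mitochondrial chromosome were filed under it and held 94.6% of its summed FPKM. Of the other members, 10357 rows were described in the table as pseudogenes, and 309 of those were expressed, at a median of 2.54 FPKM. The highest pseudogene rows were MTND1P23, a nuclear copy of a mitochondrial gene, at 420 FPKM, and RPL36AP42, RPS28P7 and RPS2P5, copies of ribosomal protein genes, at 412, 335 and 188 FPKM. Reads of such near-identical copies can be split between gene and copy, so these values are uncertain.

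**Figure D2:**
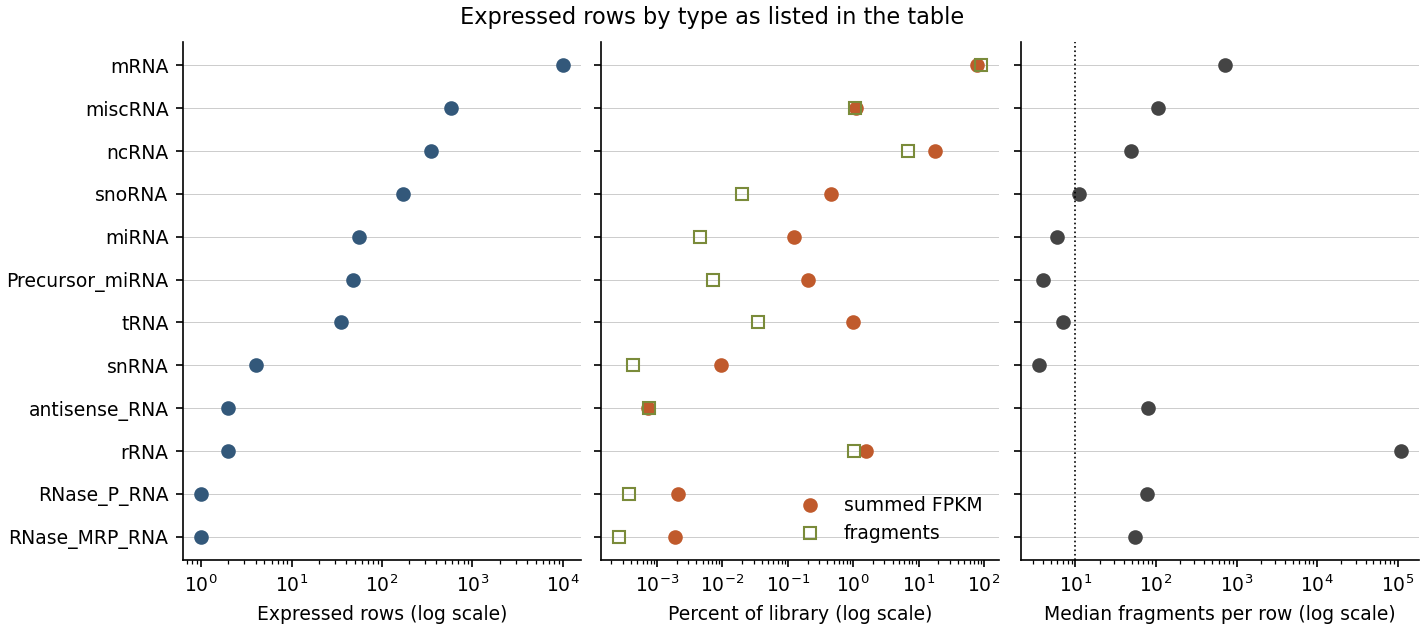
Expressed rows per type (left, log scale), percent of summed FPKM (filled) and of recovered fragments (open squares) held by each type (middle, log scale), and median fragments per expressed row (right, log scale; the dotted line marks 10 fragments). Messenger RNAs lead with 10094 rows, while the median miRNA and precursor row has 6 and 4 fragments by the smallest matching counts.

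Mitochondrial transcripts led the whole library. All 10 of the highest rows and 12 of the 15 highest came from chromosome M, whose 37 rows held 19.3% of the summed FPKM. Their share of the recovered fragments was 7.47%, which is approximate because the smallest matching counts were taken. ATP6, a subunit of ATP synthase, was the highest row of all at 14948 FPKM, followed by the cytochrome c oxidase subunits COX2 at 12197 FPKM and COX1 at 10702 FPKM. The large ribosomal RNA RNR2 was at 5472 FPKM and the small one, RNR1, at 1794 FPKM. Subunits of complex I ran lower, from ND4 at 5290 FPKM down to ND6 at 1495 FPKM and ND5 at 1387 FPKM. ATP8, which overlaps ATP6 in the genome, was at 9876 FPKM. Among the 22 mitochondrial transfer RNA rows, 21 were expressed. Whether the library was made with poly(A) selection is not given in the sources used here, and the rank of these rows depends on that step.

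The most abundant nuclear mRNAs were those of the translation machinery. RPL26, a protein of the large ribosomal subunit, was the highest mRNA row at 3059 FPKM (3025 to 3093). The elongation factor EEF1A1, which brings aminoacyl-tRNA to the ribosome, followed at 2977 FPKM, and RPS4X, a small-subunit protein, at 2952 FPKM. Of the 30 highest mRNA rows, 22 were cytosolic ribosomal protein genes and 4 were other translation or nucleolar genes: EEF1A1, the nucleolar chaperone NPM1 at 2194 FPKM, TPT1 at 1746 FPKM and nucleolin (NCL) at 1637 FPKM. A further 3 were heat shock chaperones, HSP90AA1 at 1983 FPKM, HSP90AB1 at 1832 FPKM and HSPA8 at 1628 FPKM. The remaining one was prothymosin alpha, PTMA, at 1655 FPKM. Among the 100 highest mRNA rows, the ribosomal protein genes numbered 52, the other translation genes 10, the chaperones 8, glycolytic enzymes 4, cytoskeletal genes 3 and hnRNP genes 3. The 20 outside these groups included RPSA, also a ribosomal protein, the RNA-binding protein gene YBX1 at 1200 FPKM, the calcium-binding protein gene S100A6 at 901 FPKM, the integrin gene ITGB1 at 897 FPKM and the metallothionein gene MT2A at 807 FPKM.

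Ribosomal protein genes were expressed almost throughout, yet not at 1 level. Of 78 mRNA rows whose names follow the RPL, RPS and RPLP numbering, 75 were expressed, against 51% of all mRNA rows and 28.2% of all rows. Their median over all 78 rows was 752 FPKM, beside a median of 1.21 FPKM over all mRNA rows and 0 over all rows. At a minimum of 0.5 FPKM, used as an alternative for the gene lists, the background was 54% of mRNA rows and 31.1% of all rows, and at 5 FPKM it was 37% of mRNA rows and 19.3% of all rows. The lowest expressed ones were RPS29 at 21.9 FPKM, RPL27A at 53.2 FPKM and RPL10 at 70.7 FPKM. A gene listed at 0 is reported below as so listed and no more, since the table does not separate a gene without RNA from a failed estimate.

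Many mRNAs of the translation machinery begin with a C followed by a run of pyrimidines, the 5′ terminal oligopyrimidine tract through which mTOR signalling controls their translation. Start sites of some of the highest mRNAs are shown as examples with and without a tract. RPL4 at 2179 FPKM and NCL at 1637 FPKM, not shown, had no tract at the annotated start. PTMA at 1655 FPKM, not shown, had a tract of 5 bases. The tract was not used to rank the genes. Each line gives the 15 bases before the RefSeq start site and the first 15 bases of the transcript on the gene's strand (GRCh38.p14), and capitals mark a tract that opens at the annotated start. The windows lie at chr17:8383179-8383208 (minus strand) for RPL26, chr6:73521018-73521047 (minus) for EEF1A1, chr9:124861943-124861972 (minus) for RPL35, chr9:19380222-19380251 (minus) for RPS6 and chr13:45341169-45341198 (minus) for TPT1. RPS4X at chrX:72277234-72277263 (minus) and HSPA8 at chr11:123062122-123062151 (minus) had no such tract at the annotated start.
RPL26: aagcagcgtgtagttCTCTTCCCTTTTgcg
EEF1A1: gtcgccgtgaacgttCTTTTTCgcaacggg
RPL35: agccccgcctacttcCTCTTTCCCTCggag
RPS6: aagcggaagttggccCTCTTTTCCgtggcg
TPT1: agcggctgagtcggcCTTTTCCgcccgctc
RPS4X: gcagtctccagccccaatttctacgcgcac
HSPA8: cgggcggaaaccggtctcattgaactcgcc

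A tract was counted where the base at the annotated start was C and at least 4 pyrimidines followed it, on the gene's strand only. RefSeq start sites were matched for 21 of the 30 highest mRNA rows, and 14 of the 21 had a tract. Among all matched genes the share with a tract was 4.68% (of 11417). It was 55.2% at 1000 FPKM or more (16 of 29 genes), 17.8% from 100 to 1000 FPKM, 5.49% from 10 to 100 FPKM, 4.32% from 1 to 10 FPKM, 3.87% above 0 and below 1 FPKM, and 3.10% among genes listed at 0. Ribosomal protein genes carried much of this, with a tract in 39 of the 52 matched. Without them, 3 of 10 matched genes at 1000 FPKM or more had a tract, and the share over all expressed genes was 5.28%. The matched genes were only 57.7% of mRNA rows and 60.3% of expressed mRNA rows, so the check is void as a statement on all rows because too few have a start site, and these shares describe the matched genes alone. One annotated start per gene was read, and a start a few bases away gives another call.

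Some genes of colon identity were expressed, at a share no higher than that of all mRNA rows. Of 28 transcription factors of the gut, 11 (39.3%) were expressed, beside 51% of all mRNA rows. On the list 13 were listed at 0, and the median was 0.316 FPKM. HOXA9 was the highest at 27.5 FPKM (26.1 to 29.1), followed by HOXB9 at 8.26 FPKM, CDX2, the WNT effector TCF7L2 at 4.96 FPKM and HNF4G at 4.31 FPKM. HOXA13, a hindgut patterning gene, had 2.96 FPKM and GATA4 had 2.89 FPKM. GATA6 lay just under the threshold at 0.830 FPKM, and SOX9, the crypt progenitor factor, was at 0.428 FPKM. HNF4A, a central regulator of enterocyte genes, was listed at 0, as were CDX1, the secretory-lineage factor ATOH1, ELF3 and GRHL2.

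Genes of intestinal differentiation, a list not limited to colon cells, were almost all below the threshold. Of 37, 1 was expressed, where 51% of all mRNA rows were, and 33 were listed at 0. The expressed one was CA2, a carbonic anhydrase of colonocytes, at 6.23 FPKM. The others above 0 were MUC1 at 0.249 FPKM, MUC12 at 0.0688 FPKM and the aminopeptidase gene ANPEP at 0.0117 FPKM. The microvillus gene VIL1, the goblet-cell mucin gene MUC2, the cadherin gene CDH17, the galectin gene LGALS4 and CEACAM5, which encodes carcinoembryonic antigen, were listed at 0. None of the 18 mucin rows reached 1 FPKM.

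**Figure D3:**
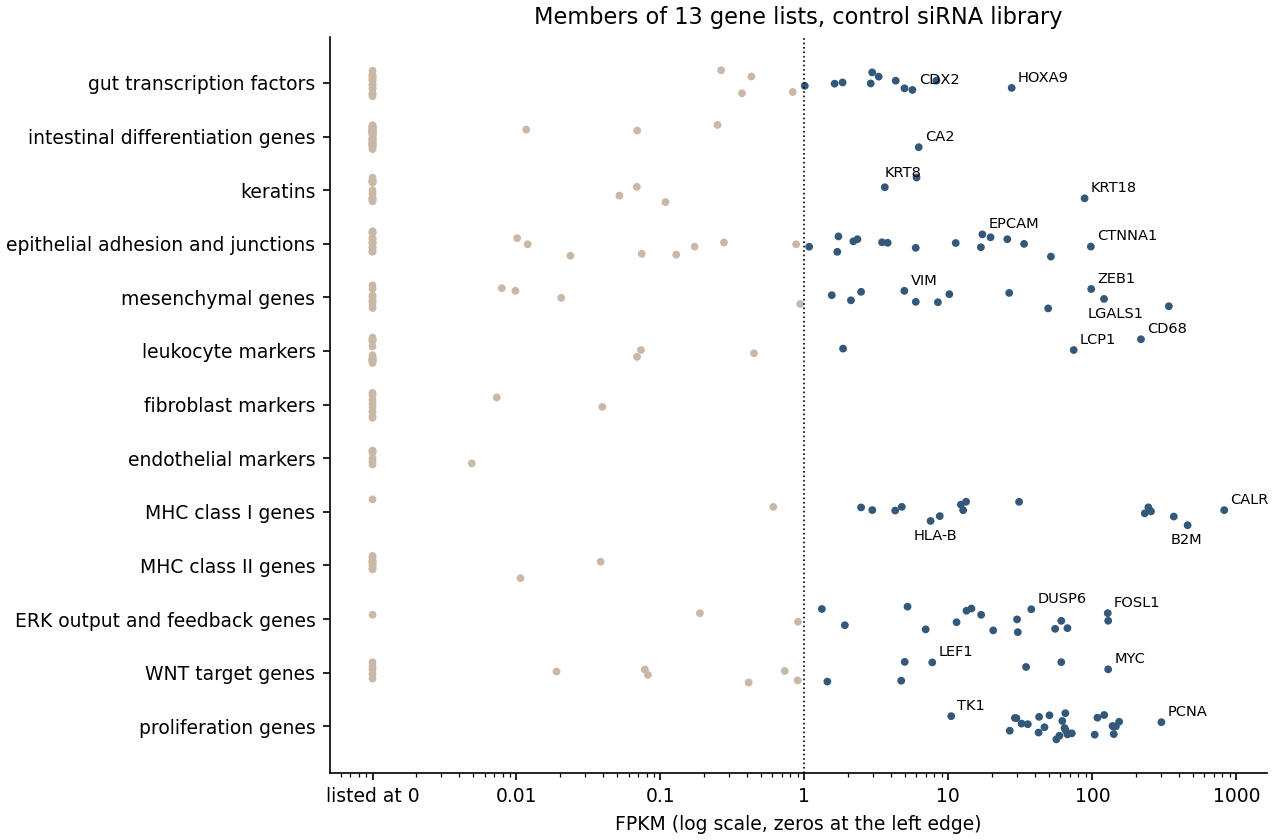
FPKM of each member of 13 gene lists (x axis, log scale, zeros drawn at the left edge; dark points are at or above 1 FPKM, pale points below, and the vertical spread within a list is only for legibility). Of the 37 intestinal differentiation genes 33 sit at the left edge, and CA2 at 6.23 FPKM is the one above 1 FPKM, while all 27 proliferation genes lie above 10 FPKM.

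Some keratins and junction genes were expressed. Of the 55 keratin rows, 3 were expressed: KRT18, KRT10 at 6.01 FPKM, and KRT8. KRT19 and KRT20, the keratin of mature colon surface cells, were listed at 0. Of 36 epithelial adhesion genes, 16 (44.4%) were expressed and 12 were listed at 0, with a median of 0.224 FPKM, a share near the 51% of all mRNA rows. The catenin genes CTNNA1 at 97.7 FPKM, CTNNB1 at 51.5 FPKM and CTNND1 at 11.3 FPKM were expressed, while CDH1, which encodes the E-cadherin they bind, was listed at 0. Of 23 rows in the cadherin family, CDH24 was the only one expressed, at 2.10 FPKM. Among desmosome genes DSG2 had 33.6 FPKM, PKP2 3.79 FPKM and DSP 1.69 FPKM. Of 23 claudins, CLDN12 at 16.8 FPKM and CLDN15 at 1.91 FPKM were expressed, and CLDN3 and CLDN7 were listed at 0. The tight-junction scaffold gene TJP1 had 25.7 FPKM. The protease inhibitor gene SPINT1 was at 19.6 FPKM, whereas ST14, which encodes a protease it inhibits, was listed at 0. Of the epithelial splicing regulators, ESRP2 had 5.93 FPKM and ESRP1 was listed at 0.

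Of 24 mesenchymal genes, 12 were expressed and 8 were listed at 0, a share near that of all mRNA rows, with a median of 1.24 FPKM. The galectin gene LGALS1 was at 121 FPKM. ZEB1, a repressor of E-cadherin and other epithelial genes, was at 98.3 FPKM, and the receptor tyrosine kinase gene AXL at 49.4 FPKM. The actin-associated genes TPM1, TAGLN and CALD1 had 26.5, 10.2 and 8.46 FPKM. Vimentin (VIM), the intermediate filament of mesenchymal cells, was low at 4.95 FPKM. ZEB2, CDH2, TWIST1 and SPARC were listed at 0, SNAI1 had 0.936 FPKM and fibronectin (FN1) 0.00982 FPKM. ZEB1, AXL and VIM each overlap an antisense gene in GENCODE 29, whose part in their values was not tested.

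Markers of other cell types were low beside CD68 and LCP1. Of 20 leukocyte genes, 3 (15%) were expressed, beside 51% of all mRNA rows: CD68, LCP1 and CORO1A at 1.86 FPKM. The defining genes PTPRC, CD14, ITGB2, SPI1, CSF1R and CD74 were listed at 0, and ITGAX had 0.446 FPKM. None of 10 fibroblast, 7 endothelial or 8 red-cell genes was expressed, and their summed levels were 0.0467, 0.00489 and 0.0750 FPKM.

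The HOX genes, which record the position of a tissue along the body axis, were expressed widely. Of 39, 27 (69.2%) were at or above 1 FPKM, beside 51% of all mRNA rows, and 5 were listed at 0, with a median of 2.04 FPKM. The HOXB cluster had 9 of 10 genes expressed and summed to 62.7 FPKM, and HOXA had 7 of 11 and summed to 64.0 FPKM. HOXC had 7 of 9 and 21.6 FPKM, and HOXD had 4 of 9 and 10.9 FPKM. The highest were HOXA9, HOXB7 at 24.5 FPKM, HOXA7 at 13.7 FPKM, HOXB6 at 10.9 FPKM and HOXB9. The posterior end of the HOXD cluster was nearly empty, with HOXD10 at 0.0240 FPKM (1 fragment) and HOXD11, HOXD12 and HOXD13 listed at 0, while HOXA10, HOXA11 and HOXA13 had 6.39, 3.68 and 2.96 FPKM. HOXA9 shares exon bases with other genes of its cluster in the annotation, so its value can include theirs.

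**Figure D4:**
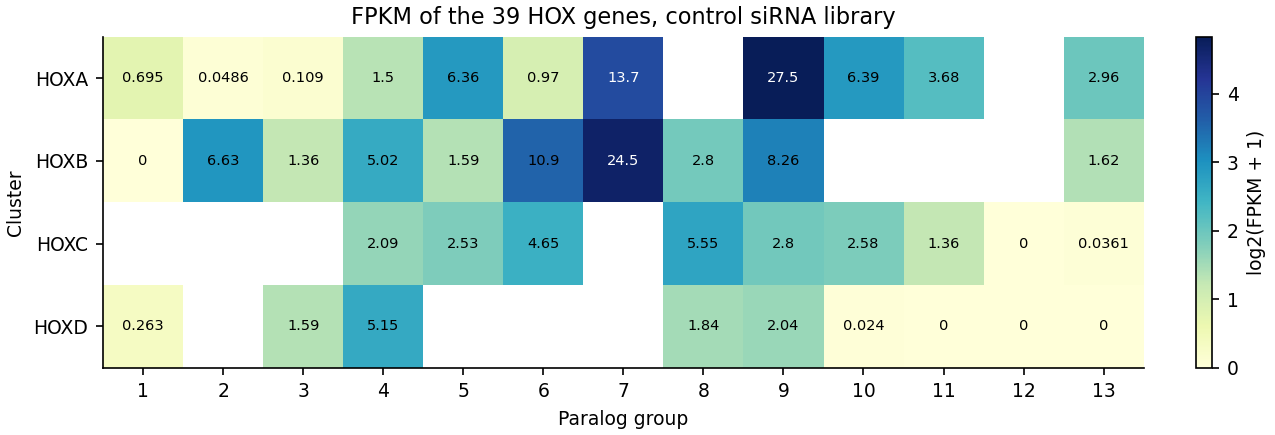
FPKM of the 39 HOX genes by cluster (rows) and paralog group (columns), with the value printed in each box, colour as log2(FPKM + 1), and white where humans have no gene. HOXA9 and HOXB7 are the darkest boxes, at 27.5 and 24.5 FPKM, and HOXD10 to HOXD13 are at or near 0.

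Sequence before the start site also differed between expressed and other genes. The 250 bases before the RefSeq start are shown for HOXA9 and CDX2, a pair of expressed identity factors, for CD68, the highest marker, and for KRT20, which was listed at 0, as examples with unlike numbers of CG dinucleotides, all below the median of expressed genes given next. Capitals mark CG dinucleotides, the sites of DNA methylation, and each line reads along the gene's strand (GRCh38.p14). The windows are chr7:27165538-27165787 (minus) for HOXA9, chr13:27969316-27969565 (minus) for CDX2, chr17:7579388-7579637 (plus) for CD68 and chr17:40885243-40885492 (minus) for KRT20. They hold 20, 10, 1 and 2 CG dinucleotides in that order.
HOXA9: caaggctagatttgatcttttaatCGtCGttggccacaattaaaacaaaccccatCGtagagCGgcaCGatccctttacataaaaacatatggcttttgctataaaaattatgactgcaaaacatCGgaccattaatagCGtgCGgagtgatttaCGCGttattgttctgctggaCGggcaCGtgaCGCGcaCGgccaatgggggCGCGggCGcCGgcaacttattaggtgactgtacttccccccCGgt
CDX2: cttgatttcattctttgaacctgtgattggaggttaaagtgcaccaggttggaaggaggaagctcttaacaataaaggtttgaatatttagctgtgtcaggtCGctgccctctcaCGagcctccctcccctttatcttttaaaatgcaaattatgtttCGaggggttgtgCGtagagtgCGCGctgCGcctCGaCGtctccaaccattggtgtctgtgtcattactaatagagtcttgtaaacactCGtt
CD68: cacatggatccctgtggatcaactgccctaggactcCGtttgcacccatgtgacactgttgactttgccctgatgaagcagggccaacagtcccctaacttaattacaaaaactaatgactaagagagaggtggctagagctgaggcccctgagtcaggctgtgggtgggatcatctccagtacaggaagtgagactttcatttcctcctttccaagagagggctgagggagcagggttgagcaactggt
KRT20: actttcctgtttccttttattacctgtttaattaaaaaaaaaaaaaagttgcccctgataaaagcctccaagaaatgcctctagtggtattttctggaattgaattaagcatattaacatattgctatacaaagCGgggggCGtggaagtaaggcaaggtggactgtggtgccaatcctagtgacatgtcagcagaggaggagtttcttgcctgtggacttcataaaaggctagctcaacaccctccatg

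Over the 300 bases around the start (250 before and 50 after), the median matched gene had 28 CG dinucleotides if expressed (6088 genes), against 9 if below 1 FPKM and 7 if listed at 0. Fewer than 5 CG were found in 1.74% of expressed genes, against 33.2% of genes below 1 FPKM and 16.4% of all matched genes. The letters TATAAA, searched on the gene's strand from 40 to 15 bases before the start, were found in 1.69% of expressed genes, against 7.73% of genes below 1 FPKM and 4.51% of all. This share did not change evenly with level. It was 6.14% from 100 to 1000 FPKM (21 of 342 genes), above that of all matched genes, 1.21% from 10 to 100 FPKM and 1.67% from 1 to 10 FPKM. None of the 29 genes at 1000 FPKM or more had it. CD68, with 218 FPKM and 2 CG in its 300 bases, and LCP1, with 74.3 FPKM and also 2, were among the 106 expressed genes with so few. KRT8 likewise had 2. The starts read for CD68, LCP1 and KRT8 lay within the GENCODE 29 bounds of these genes rather than at the outermost start, and other starts were not read. The same limit on matching holds for these shares, which describe the matched genes, and none of them says whether a site was methylated.

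Genes of DNA mismatch repair spanned a wide range of levels. PCNA, the sliding clamp, was the highest at 302 FPKM. The mismatch recognition genes MSH6 and MSH3 had 51.6 and 1.49 FPKM, the exonuclease gene EXO1 49.9 FPKM, and the MutL genes PMS1, PMS2 and MLH3 had 13.8, 7.68 and 5.72 FPKM.

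Of 26 genes that are often silenced by promoter methylation in colon cancer, 4 (15.4%) were expressed, beside 51% of all mRNA rows, and 17 were listed at 0. The expressed ones were SEPT9 at 31.2 FPKM, the DNA repair methyltransferase gene MGMT at 14.2 FPKM, VIM and RASSF1 at 3.81 FPKM. RUNX3, SFRP1, TIMP3, CACNA1G, NEUROG1 and IGF2 were listed at 0, CDKN2A had 0.0596 FPKM and SOCS1 had 0.320 FPKM. HIC1, also on this list, was the row nearest but one below the threshold. Of this list's genes below 1 FPKM, 10 had a matched start, with a median of 27 CG per 300 bases. No methylation was measured here.

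Outputs of the ERK pathway, which BRAF activates, were mostly expressed, and WNT targets less so. Of 20 ERK output and feedback genes, 17 (85.0%) were expressed, beside 51% of all mRNA rows, with a median of 15.7 FPKM. The expressed ERK genes included the AP-1 subunit gene FOSL1 at 128 FPKM, MYC at 129 FPKM, PHLDA1 at 67.2 FPKM, and the feedback inhibitor genes SPRY4 at 55.2 FPKM, DUSP6 at 37.7 FPKM and DUSP5 at 20.5 FPKM. DUSP4 was low at 0.188 FPKM and EPHA4 was listed at 0. Of 18 WNT targets, 7 (38.9%) were expressed, a share not far below that of all mRNA rows, with a median of 0.570 FPKM. The expressed ones were MYC, CCND1 at 60.9 FPKM, CD44 at 34.7 FPKM, LEF1 at 7.73 FPKM, TCF7 at 4.98 FPKM, EPHB2 at 4.70 FPKM and ZNRF3 at 1.44 FPKM. Of the feedback genes AXIN2 had 0.730 FPKM, NKD1 0.897 FPKM and RNF43 0.0190 FPKM, and the stem-cell genes LGR5 and ASCL2 were listed at 0. MYC and CCND1 stood on both lists, so the lists are not separate.

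Of 21 target genes of p53, all 21 were expressed, where 51% of all mRNA rows were, from 1.47 to 38.5 FPKM with a median of 8.67 FPKM. The ribonucleotide reductase subunit gene RRM2B had 38.5 FPKM, the pro-apoptotic gene BAX 28.7 FPKM, the p53 ubiquitin ligase gene MDM2 25.7 FPKM, the death receptor gene TNFRSF10B 20.0 FPKM and the cell-cycle inhibitor gene CDKN1A 19.3 FPKM. Among 32 receptor tyrosine kinases 19 (59.4%) were expressed, a share near that of all mRNA rows. They were led by AXL, EPHA2 at 30.004 FPKM, MET at 20.4 FPKM and EPHB4 at 20.0 FPKM. EGFR was at 3.96 FPKM and ERBB2 at 8.15 FPKM, and KIT, ALK and ERBB4 were listed at 0.

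Antigen presentation genes were expressed for class I alone. Of 18 MHC class I genes 16 (88.9%) were expressed, beside 51% of all mRNA rows, with a median of 12.4 FPKM. The heavy chain HLA-C had 231 FPKM, HLA-E had 31.0 FPKM and HLA-B 7.52 FPKM, while HLA-G was listed at 0. The shared light chain B2M had 459 FPKM, the peptide transporter genes TAP1 and TAP2 had 8.71 and 12.2 FPKM, and the loading chaperone genes CALR and PDIA3 had 825 and 368 FPKM. NLRC5, the transactivator of class I genes, was below the threshold at 0.608 FPKM. HLA genes are alike and polymorphic, and how reads were shared between them is not given in the sources used here. None of 11 MHC class II genes was expressed. Of 33 cancer-testis antigen genes, 1 was expressed, PRAME at 34.2 FPKM, and 32 were listed at 0.

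All 27 proliferation genes were expressed, where 51% of all mRNA rows were. Their median was 64.1 FPKM, with a range of 10.5 FPKM for the thymidine kinase gene TK1 to 302 FPKM for PCNA. The cycling-cell marker gene MKI67 had 154 FPKM, the mitotic spindle gene TPX2 146 FPKM, thymidylate synthase (TYMS) 141 FPKM, the helicase subunit gene MCM4 138 FPKM and topoisomerase TOP2A 65.3 FPKM. Of 19 glycolytic enzymes 17 were expressed, led by GAPDH at 1054 FPKM, LDHB at 1042 FPKM, ENO1 at 810 FPKM, PKM at 605 FPKM and LDHA at 415 FPKM. The muscle isoform gene ENO3 had 0.633 FPKM. All 23 heat shock and chaperone genes were expressed, with a median of 362 FPKM, and the lowest was HSPA1A at 1.85 FPKM, beside 54.1 FPKM for its near-identical neighbour HSPA1B, between which reads could be split. Cytoskeletal genes were expressed in 25 of 28, from the actin-binding thymosin gene TMSB10 at 1193 FPKM and ACTG1 at 943 FPKM down to the ERM-protein gene MSN at 2.48 FPKM. Its relative EZR had 92.0 FPKM and RDX was listed at 0.

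Other families, added after their values were seen, are given beside the 51% of all mRNA rows that were expressed. All 76 mitochondrial ribosomal protein rows were expressed (median 38.9 FPKM), as were 37 of 39 proteasome rows and 9 of 9 CCT chaperonin rows. Zinc finger genes of the ZNF series were expressed in 352 of 506 rows (69.6%), at a median of 5.10 FPKM for the expressed ones, solute carriers in 147 of 334 (44.0%) and RAB GTPases in 37 of 60 (61.7%). The solute carrier and RAB shares were near that of all mRNA rows. Of 26 integrin rows 8 were expressed: ITGB1 at 897 FPKM, then ITGA5 at 15.8 FPKM, ITGAV at 13.4 FPKM, ITGA6 at 8.13 FPKM and 4 others at 3.05 to 6.24 FPKM. Of 19 S100 rows 7 were expressed, S100A6 first and S100A2 next at 296 FPKM, and 12 were listed at 0. Of 44 collagen rows 3 were expressed, COL27A1 at 10.7 FPKM, COL9A3 at 9.81 FPKM and COL6A1 at 2.85 FPKM. Chemokines were expressed in 1 of 41 rows, CXCL16 at 13.5 FPKM, and none of 377 olfactory receptor rows reached the threshold.

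Of 22 long noncoding RNA genes examined, 17 (77.3%) were expressed, beside 28.2% of all rows, 9.46% of miscRNA rows and 2.997% of ncRNA rows. The 22 were picked by name with earlier results known, so their share does not stand for long noncoding RNAs as a class. The small nucleolar RNA host genes SNHG5 and SNHG6 were the highest at 341 and 330 FPKM, followed by GAS5 at 130 FPKM and ZFAS1 at 106 FPKM. The nuclear RNAs MALAT1 and NEAT1 had 96.4 and 68.2 FPKM, and CCAT1, named for its presence in colon cancer, had 21.5 FPKM. H19 and HOTAIR were below the threshold at 0.712 and 0.694 FPKM, and MEG3 and UCA1 were listed at 0. Of 18 structured noncoding RNA genes 6 (33.3%) were expressed, a share near the 28.2% of all rows. SNORD3A was at 67.9 FPKM and RN7SK at 40.6 FPKM, and the Y RNA and vault RNA genes examined were listed at 0.

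Many small RNA rows rested on few fragments by the smallest matching counts, although true counts can be whole multiples of those given here. Of the expressed rows that matched the annotation, 1 snoRNA, 2 miRNA and 6 precursor rows lay in no longer gene, and the others lay inside one. A fragment over such a row can come from the longer gene, and these values are not levels of mature small RNA. Of the 172 expressed small nucleolar RNA rows, 79 (45.9%) had fewer than 10 fragments, as did 39 of 56 miRNA rows and 35 of 48 precursor rows. For the 104 expressed miRNA and precursor rows, 89 matched mature sequences in RefSeq, and 13 of the 104 had at least 30 fragments. The highest were MIR5047 at 238 FPKM and MIR3064 at 229 FPKM, both in exons of DDX5, an RNA helicase gene at 336 FPKM, and MIR1244-1 at 153 FPKM in an exon of PTMA. MIR29A and MIR29B1 followed at 98.6 FPKM (83.2 to 116) and 83.8 FPKM (71.2 to 97.9), although LINC-PINT, the longer gene whose exon holds them, had 2.65 FPKM. MIRLET7F1 was at 66.6 FPKM with 134 fragments, MIR221 at 60.1 FPKM with 153, MIR222 at 36.1 FPKM with 46, MIR31 at 28.6 FPKM with 47 and MIRLET7D at 15.4 FPKM with 31.

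The mature sequences of these genes are shown because several share a seed, bases 2 to 8, the part that pairs with target mRNAs, which is in capitals. They are from RefSeq (GRCh38.p14). The mature sequences of miR-29a and miR-29b lie at chr7:130876748-130876769 and chr7:130877467-130877489 (minus strand), those for miR-221 and miR-222 at chrX:45746180-45746202 and chrX:45747036-45747056 (minus), those for let-7f and let-7d at chr9:94176353-94176374 and chr9:94178841-94178862 (plus) and that for miR-31 at chr9:21512158-21512178 (minus).
hsa-miR-29a-3p: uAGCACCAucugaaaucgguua
hsa-miR-29b-3p: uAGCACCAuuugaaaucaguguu
hsa-miR-221-3p: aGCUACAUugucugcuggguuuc
hsa-miR-222-3p: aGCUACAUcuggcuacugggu
hsa-let-7f-5p: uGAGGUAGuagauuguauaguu
hsa-let-7d-5p: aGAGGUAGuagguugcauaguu
hsa-miR-31-5p: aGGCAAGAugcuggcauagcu

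The miR-29 seed AGCACCA was shared by 4 expressed rows, MIR29A, MIR29B1, MIR29B2 and MIR29C. The let-7 seed GAGGUAG was shared by 6 rows and the seed GCUACAU by MIR221 and MIR222. The seed GCAGCAU was shared by MIR103A1, MIR103A2 and MIR107. Rows that share a seed can also lie side by side in 1 longer transcript, as MIR29A and MIR29B1 do, so they are not separate measurements.

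Longer genes around expressed small RNA rows were higher than those around rows below 1 FPKM. Among snoRNA rows with a longer gene in the table, that gene was expressed for 143 of 143 expressed rows, with a median of 229 FPKM, against 71 of 125 rows below the threshold, with a median of 6.81 FPKM. For miRNA rows the longer gene was expressed in 42 of 43, with a median of 14.7 FPKM, against 233 of 404 and 2.404 FPKM. For precursor rows it was expressed in 32 of 35, with a median of 14.9 FPKM, against 187 of 339 and 1.73 FPKM. Of the 151 expressed snoRNA rows that matched the annotation, 95 lay in an exon and 55 in an intron of the longer gene. The highest snoRNA rows were SNORD79 at 84.3 FPKM and SNORD80 at 84.0 FPKM, SNORD18C at 81.3 FPKM in RPL4, and SNORD25 at 76.8 FPKM in SNHG1. Several small RNAs share 1 longer gene, so the rows are not independent, and the share of their fragments that came from the longer gene was not tested.

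**Figure D5:**
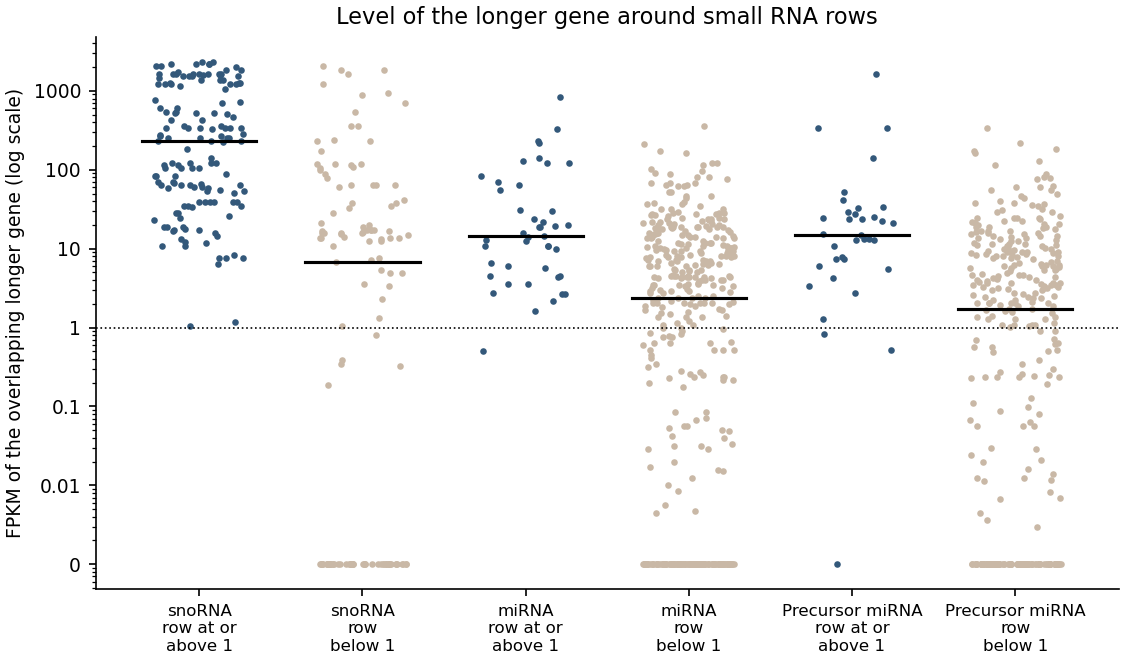
FPKM of the longer gene that overlaps each small RNA row (y axis, log scale, zeros drawn at the bottom), for rows at or above 1 FPKM (dark) and below it (pale) of each type, with the median as a bar. The bars stand at 229 and 6.81 FPKM for snoRNA rows, 14.7 and 2.404 FPKM for miRNA rows and 14.9 and 1.73 FPKM for precursor rows.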

How the data were processed

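FPKM values of both libraries were deposited by the authors in 1 table of 40205 rows with a gene type per row. Reads were mapped with Bowtie 0.12.2 to hg19, per the submitters' processing notes. The counting tool, annotation, strand setting and any poly(A) selection were not given in the sources used here. The share of mapped reads per chromosome is a fraction in the mapping summary deposited by the authors.

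From these, rows of the control siRNA library were ranked by FPKM and counted at 1 FPKM or more, with no pseudocount. The HOX plot colours log2(FPKM + 1). Whole fragments and gene-model lengths were recovered from the values at a relative tolerance of 1e-13, for 17383 of 17392 rows above 0 (99.9%). The recovered fragments sum to 20812317. The library of SRSF1 siRNA was used only to fix gene-model lengths and to check SRSF1. The recovery takes the smallest counts that match, so a true count could be a whole multiple and an interval narrower, and shares of fragments are approximate. The recovery was tested on simulated data. With 1 library per group no test was run.

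Overlaps and small RNA positions came from GENCODE 29, and start sites and miRNAs from RefSeq, both on GRCh38 and matched by symbol. Named genes were the 6 markers, the 30 highest mRNA rows, the 3 highest rows of each type, and in the 28 lists the highest members and the defining members below 1 FPKM. Families and their named members were added after their values were seen. The members and lists were chosen with earlier results of these data known. Python 3.11.15, pandas 2.3.3, numpy 2.4.6, scipy 1.17.1 and matplotlib 3.10.9 were used. Alternatives were other minimums, rescalings, and shares without chromosome M. Values of some genes are not reported here.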

Additional observations from a re-analysis of the deposited data

How the results depend on the processing

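The number of expressed rows stayed within 1.5 times of 11353 under minimums from 0.1 to 5 FPKM, under rescaling, and with at least 10 fragments (7740 to 14743), but was 5489 at a minimum of 10 FPKM. The mRNA share of expressed rows was 78.5% at a minimum of 0.1 FPKM, 85.5% at 0.5, 91.6% at 2, 94.5% at 5 and 95.5% at 10, against 88.9% at 1. The 100 highest rows held 31.3% of the summed level among mRNA rows alone, 24.2% when recovered fragments replaced FPKM and 30.2% without chromosome M, against 41.4%. Ranked among the 10094 expressed mRNA rows only, CD68 was 230, KRT18 655, LCP1 806, CDX2 6960 and KRT8 8121. Of the 556 distinct list genes measured, 301 were expressed, 315 at a minimum of 0.5 FPKM and 249 at 5. Of 56 list counts recomputed at these minimums, 51 stayed within 1.5 times. The others, all at 5 FPKM, were 3 gut transcription factors, 9 epithelial adhesion genes, 2 genes often silenced by methylation, 4 WNT targets and 8 receptor tyrosine kinases. No paired analysis was possible because each group had 1 library. Depth limits the small RNA rows. By the smallest matching counts, 60% of expressed transfer RNA, 69.6% of miRNA and 72.9% of precursor rows had fewer than 10 fragments. True counts can be whole multiples, so these shares are upper limits. With 1 culture, variation between cultures is unknown.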

Other observations

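Across nuclear chromosomes, the share of mapped reads relative to the share of genome length was highest for chromosomes 19 (2.06), 17 (2.05) and 12 (1.48) and lowest for 13 (0.479), X (0.485) and 18 (0.490). The share of mRNA rows that were expressed ran from 37.1% on the X chromosome to 58.8% on chromosome 16, among the 19165 mRNA rows (96.9%) with a RefSeq chromosome. Chromosome M took 6.60% of mapped reads.

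Genes for iron handling and redox defence were expressed in 20 of 22 cases, beside 51% of all mRNA rows, with a median of 60.7 FPKM over the list. Thioredoxin (TXN) had 357 FPKM, the peroxiredoxin gene PRDX1 313 FPKM, superoxide dismutase SOD1 256 FPKM, and the ferritin genes FTL and FTH1 223 and 156 FPKM. SLC7A11, the cystine transporter gene, lay just below the threshold at 0.959 FPKM, and GPX2, a glutathione peroxidase of gut epithelium, was listed at 0. Other high mRNAs were BST2, the antiviral tetherin gene, at 336 FPKM, RGS4, a regulator of G-protein signalling, at 333 FPKM, the fatty acid-binding protein gene FABP5 at 776 FPKM and G0S2 at 507 FPKM. Interleukins were expressed in 6 of 46 rows, the highest at 77.2 FPKM for IL32. BST2, RGS4, FABP5, G0S2 and IL32 were chosen after their values were seen.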
